A study of Mus musculus with 28 samples.

Results

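Integrins are receptors that hold a cell to the matrix around it, and laminins are the trimeric matrix proteins that many of them bind. The genes described here are the integrin subunits and laminin chains of the mouse, chosen by symbol from the gene names of the count table with no use of their values. The rule found 37 of 28244 genes, namely 18 integrin α subunits, 8 integrin β subunits, 5 laminin α chains, 3 laminin β chains and 3 laminin γ chains. Their levels were read in 28 samples of 11 groups, taken from RNA-seq of polyA RNA as the reads counted for each gene.

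The study derived peripheral neural stem cells (pNSCs), which are neural stem cell (NSC) lines grown from tissue outside the brain, and compared them with brain NSCs from the same kind of mouse. The Nes-GFP mice carry GFP under regulatory elements of Nestin, and GFP-positive cells were sorted from adult lung and postnatal tail. Their groups, with 2 samples each, are the lung pNSCs, tail pNSCs and brain NSCs (labelled Lung-pNSC, Tail-pNSC and Brain-NSC) and cells of lung and postnatal tail tissue labelled only Lung and Tail, where the labels do not say whether the Lung cells were adult or postnatal. The labels name no mouse line for these 5 groups, and they were taken as Nes-GFP because the groups and sample numbers match the legend of that experiment. The Wnt1Cre-mTmG mice carry Wnt1-Cre with the R26-mTmG reporter, in which neural crest cells and their descendants turn green and unlabelled cells stay red. The paper adds that Wnt1 tracing also labels midbrain cells. Their groups, with 3 samples each, are brain NSCs, postnatal tail pNSCs and postnatal dorsal root ganglion (DRG) pNSCs. The pNSCs were grown from unsorted cells and were red, while the colour of the brain NSCs is not given in the sources used here. These groups were compared with 3 samples of neural crest stem cells (NCSCs) grown from the DRG of adult wild-type mice. Wnt1-Cre may miss part of the neural crest. The Sox2-GFP mice carry GFP knocked in at Sox2, and their groups, with 3 samples each, are brain NSCs and pNSCs from sorted postnatal lung cells, compared with the same 2 Lung samples. All NSC and pNSC lines grew in NSC medium with EGF and bFGF, and pNSC lines started from picked clusters that were usually clonal, so that a group may stand for few founder cells. The labels give C57BL/6 as the strain of every sample, whereas the study's methods describe transgenic lines kept on other stocks.

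Each integrin is a pair of an α and a β subunit, and the pair sets the ligand. The subunit β1 pairs with most α subunits: with α3, α6 and α7 it binds laminin, with α1, α2, α10 and α11 collagen, with α5 fibronectin, and with α4 and α9 ligands such as VCAM1, osteopontin and tenascin. The subunit αv pairs with several β subunits and binds proteins with an RGD motif, while α6β4 sits in epithelial attachment plates, αIIbβ3 on platelets and the β2 integrins on leukocytes. A laminin holds an α, a β and a γ chain, the α chain carries the main binding sites for integrins, and neural stem cells meet laminin in the brain at the ventricular surface and in the basement membrane of blood vessels.

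The libraries held 9808246 to 22637031 counts, with the Wnt1Cre-mTmG brain NSCs and DRG pNSCs the shallowest at 9808246 to 11431445. Levels are given as CPM, counts relative to a library size corrected with edgeR's TMM factors over all 28 samples. A gene was treated as undetectable at 3 counts or fewer, which is 0.131 to 0.294 CPM. A set of 6 NSC markers summed to 4316 to 6361 CPM in all NSC and pNSC samples, to 1454 to 1841 in NCSCs and to 86.4 to 308 in Tail and Lung cells. Replicates of a group differed by 1.09 to 2.84 times counting error, as the mean squared difference over genes, except that NCSC replicate 3 stood apart from the other two at 17.3 and 21.6 times. Results on NCSCs are therefore given with and without it. The study's legends call the samples biological replicates, and the labels do not say which came from separate cultures or animals, so p-values measure the spread between these samples. In bulk RNA, fewer cells of a kind and less RNA per cell cannot be told apart.

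The NSC and pNSC samples shared a small set of abundant members. *Itga6*, *Itgav*, *Itgb1*, *Itgb8*, *Lama5* and *Lamc1* were above 100 CPM in all 21 NSC and pNSC samples. At the other end, 17 members stayed under 5 CPM in all of them, among them the leukocyte subunits, the chains *Lama3* and *Lamb3* of epithelial basement membrane, and the collagen receptors *Itga10* and *Itga11*. The other 14 lay between or crossed these levels. In brain NSCs and pNSCs together, *Itgb1*, the common β subunit, ran from 775 to 1080.4 CPM, the narrowest relative range of these 6 members.

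**Figure D1:**
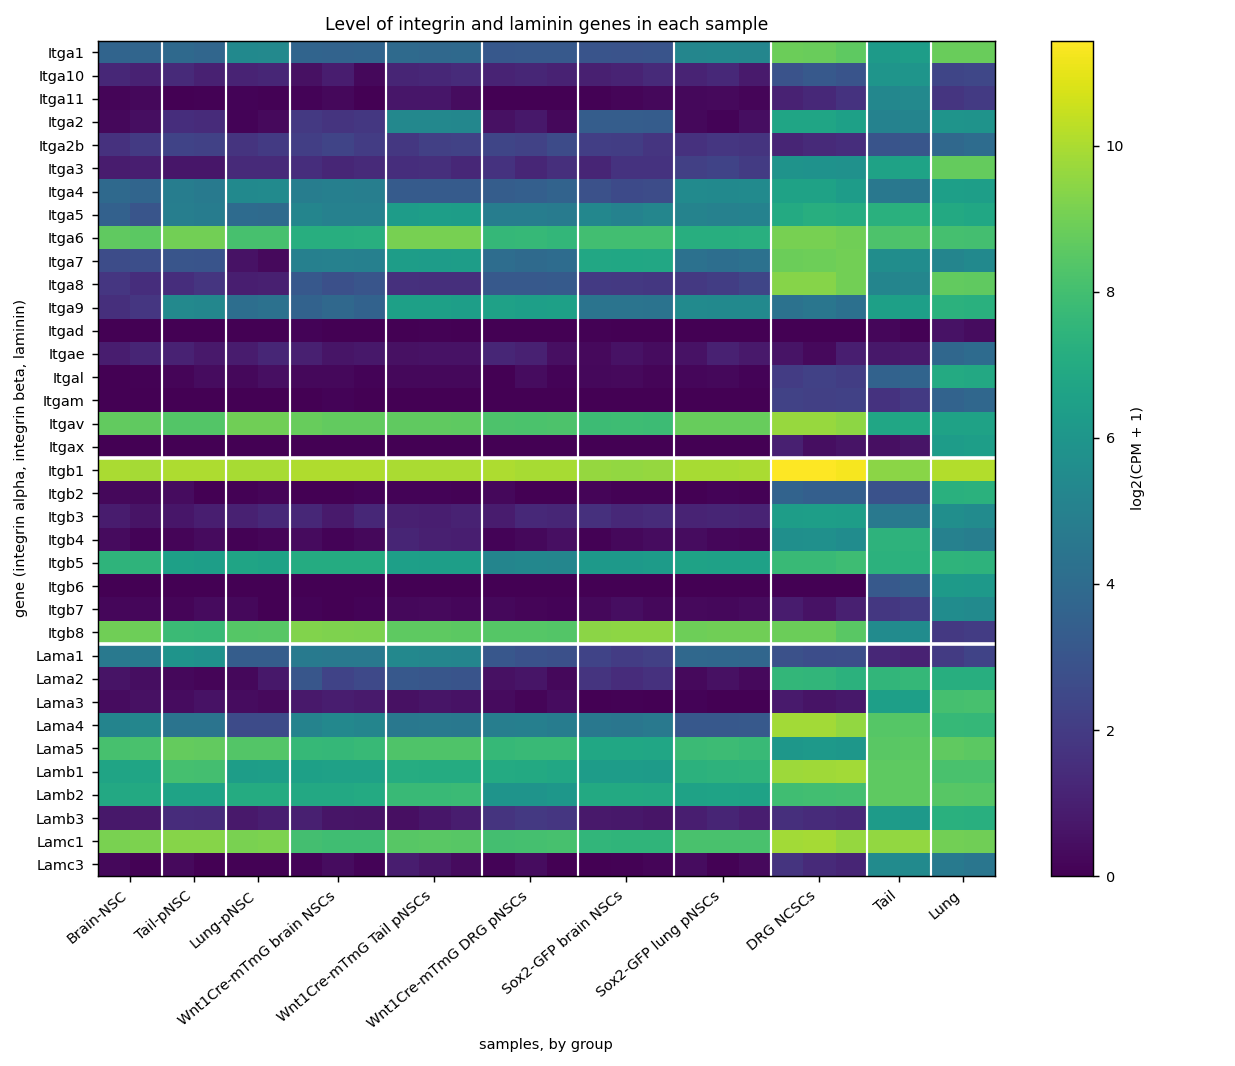
Level of 36 of the integrin and laminin genes (rows, by chain class) in each of the 28 samples (columns, by group), as log2 of TMM-scaled CPM with 1 added. The NSC and pNSC columns share bright rows (high levels) for *Itga6*, *Itgav*, *Itgb1*, *Itgb8*, *Lama5* and *Lamc1*, while NCSC, Tail and Lung columns carry many more members.

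Levels of different genes were compared as CPM per kilobase of merged exons. *Itgb1* led the β subunits in every group, with 72.0% of their summed level in Nes-GFP brain NSCs and 85.0% in Nes-GFP tail pNSCs, and in NSC and pNSC groups *Itgb5* and *Itgb8* made up nearly all of the rest. *Itga6*, a laminin receptor subunit, and *Itgav* led the α subunits in all NSC and pNSC groups. *Itga6* was ahead in Nes-GFP tail pNSCs (56.3 ± 0.289 CPM per kilobase, SD, n = 2, against 30.8 ± 0.144 for *Itgav*), and *Itgav* was ahead in Nes-GFP lung pNSCs (46.0 ± 0.566 against 30.6 ± 0.465). In neither group did the samples of the pair overlap.

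Among the laminin α chains per kilobase, *Lama5* held 75.0% to 95.3% of the summed level in the NSC and pNSC groups. Its share was 6.65% in NCSCs, where *Lama4*, the chain of laminins around blood vessels and mesenchyme, held 80.4%. In Tail and Lung cells the share of *Lama5* was 39.9% and 40.2%. The β chain changed hands: *Lamb2* led in brain NSCs, Nes-GFP lung pNSCs and Wnt1Cre-mTmG tail pNSCs, and *Lamb1* led in Nes-GFP tail pNSCs (62.0%), Sox2-GFP lung pNSCs (51.6%), DRG pNSCs (53.9%) and NCSCs (68.7%).

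**Figure D2:**
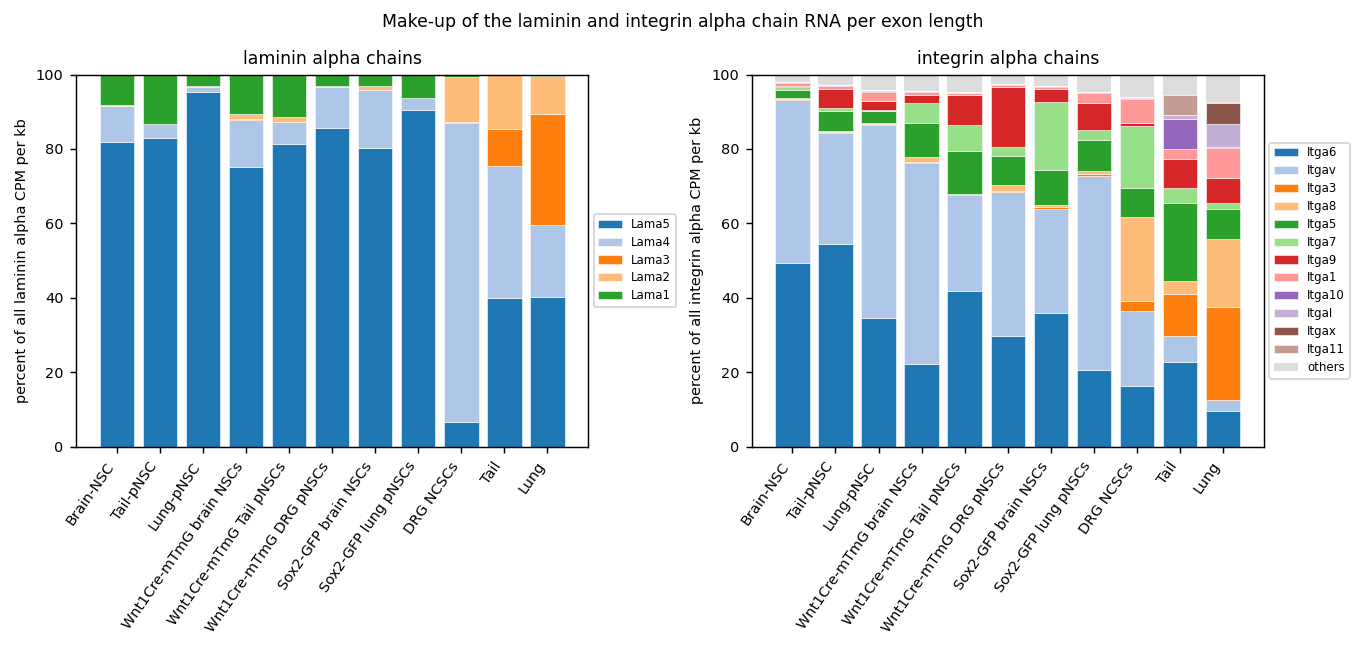
Share of each gene in the summed CPM per kilobase of its chain class (percent, vertical axis) in each group (horizontal axis), as the mean over the group's samples. *Lama5* fills most of the laminin α bar in NSC and pNSC groups (75.0% to 95.3%) and 6.65% in NCSCs.

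The first comparison asked how the pNSCs of each tissue differed from brain NSCs of the same line. A gene was called changed when edgeR's quasi-likelihood test gave a Benjamini-Hochberg adjusted p under 0.05 over all genes tested and a log2 fold change of at least 1 either way. Genes high only in tissue cells or NCSCs also passed the count filter, and they are among those tested. In Nes-GFP tail pNSCs, 11 of 36 tested members were called, 8 higher and 3 lower (30.6%), against 10.9% of all 16948 genes tested, 4.31% higher and 6.59% lower. In Nes-GFP lung pNSCs 9 of 36 were called, 4 higher and 5 lower (25%), against 8.71% of all genes, 4.56% higher and 4.15% lower. In Wnt1Cre-mTmG tail pNSCs it was 11 of 33, 9 higher and 2 lower (33.3%), against 18.2% of 14448 genes, 9.16% higher and 9.05% lower. In DRG pNSCs it was 10 of 33, 3 higher and 7 lower (30.3%), against 9.53%, 3.12% higher and 6.41% lower. In Sox2-GFP lung pNSCs 11 of 36 were called, 7 higher and 4 lower (30.6%), against 15.7% of 16234 genes, 5.76% higher and 9.99% lower. The median log2 fold change of the members was 0.08, -0.03, 0.45, -0.25 and 0.05 in this order, and that of all genes lay between 0 and 0.01. The 2 Nes-GFP comparisons share their brain NSC samples, as do the 2 of Wnt1Cre-mTmG, so their values are not independent. Over the 5 comparisons 24 members were called in at least 1, and 13 in none, among them *Itgb1*, *Itgav*, *Lamc1* and *Lamb2*. *Itga9* was the only member called higher in all 5, and *Itga2*, *Itga4*, *Itga7* and *Lama1* were among those called in both directions. For these counts over the 5 comparisons no share of all genes is given, so they do not set the members apart from other genes.

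**Figure D3:**
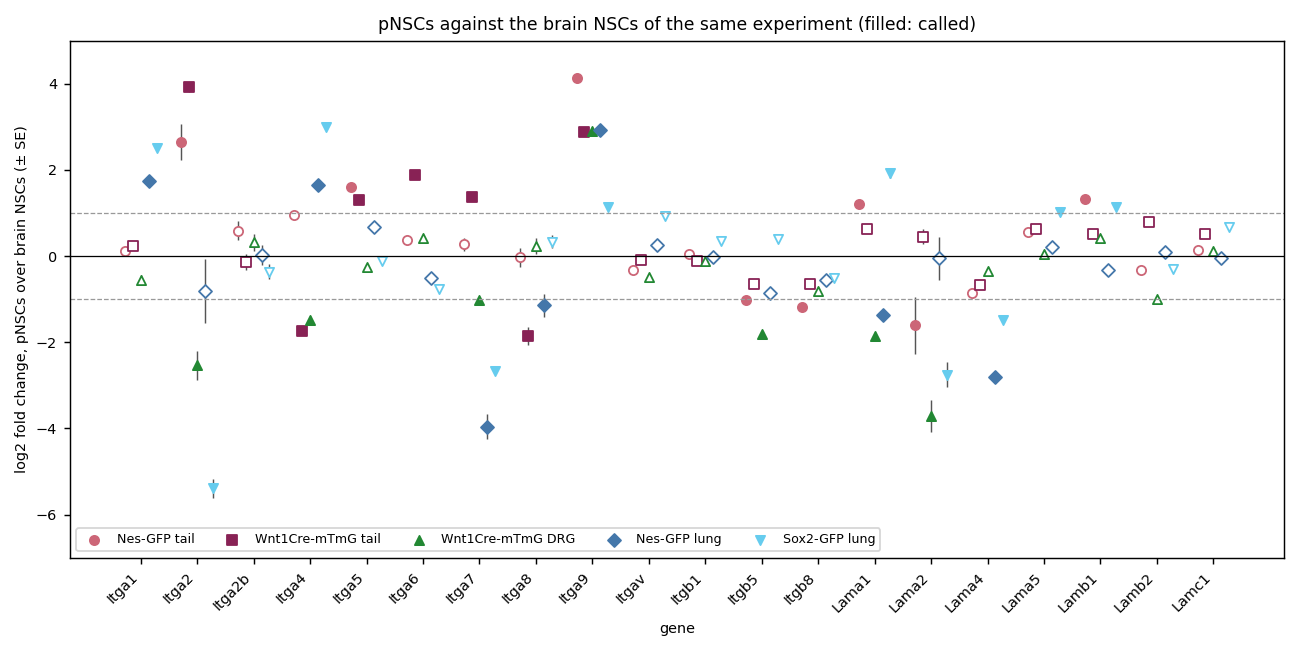
Log2 fold change (vertical axis, bars ± SE) of the 20 members that reached 5 CPM in some NSC or pNSC sample (horizontal axis) in the 5 comparisons of pNSCs with brain NSCs of the same line; filled points passed both limits, open points did not. *Itga9* is filled and above 1 in all 5 comparisons, from 1.13 ± 0.05 to 4.14 ± 0.12.

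*Itga9* (chr9:118606690-118901003, plus strand, GRCm38) encodes the α9 subunit, which pairs with β1 and binds tenascin-C, osteopontin and VCAM1. It stood at 41.0 and 38.8 CPM in Nes-GFP tail pNSCs and 16.3 and 18.4 in Nes-GFP lung pNSCs, against 1.91 and 2.51 in their brain NSCs. In the Wnt1Cre-mTmG line it was at 88.8, 90.0 and 85.4 in tail pNSCs and 91.7, 86.8 and 89.4 in DRG pNSCs, against 11.2, 13.4 and 11.1 in brain NSCs. In the Sox2-GFP line it was at 44.1, 41.9 and 41.9 in lung pNSCs and 20.1, 19.8 and 19.6 in brain NSCs. Within every line all pNSC samples were above all brain NSC samples, but the Sox2-GFP brain NSCs lay above the Nes-GFP lung pNSCs. The rise was 17.6-fold in Nes-GFP tail pNSCs (log2 fold change 4.14 ± 0.12 SE, edgeR adjusted p = 6.06e-273) and 7.64-fold in Nes-GFP lung pNSCs (log2 fold change 2.93 ± 0.14 SE, edgeR adjusted p = 1.14e-97). It was 7.33-fold in Wnt1Cre-mTmG tail pNSCs (log2 fold change 2.87 ± 0.08 SE, edgeR adjusted p = 2.51e-15), 7.52-fold in DRG pNSCs (log2 fold change 2.91 ± 0.08 SE, edgeR adjusted p = 1.19e-14) and 2.19-fold in Sox2-GFP lung pNSCs (log2 fold change 1.13 ± 0.05 SE, edgeR adjusted p = 3.07e-103). Brain NSC groups differed by up to 8.96-fold in *Itga9* between lines. In NCSCs it stood at 18.6, 21.6 and 17.7 CPM, under both Wnt1Cre-mTmG pNSC groups. Tail cells held 89.7 and 87.6 CPM of *Itga9* and Lung cells 160 and 154. These levels lay above those of the Nes-GFP tail and lung pNSCs and of the Sox2-GFP lung pNSCs.

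**Figure D4:**
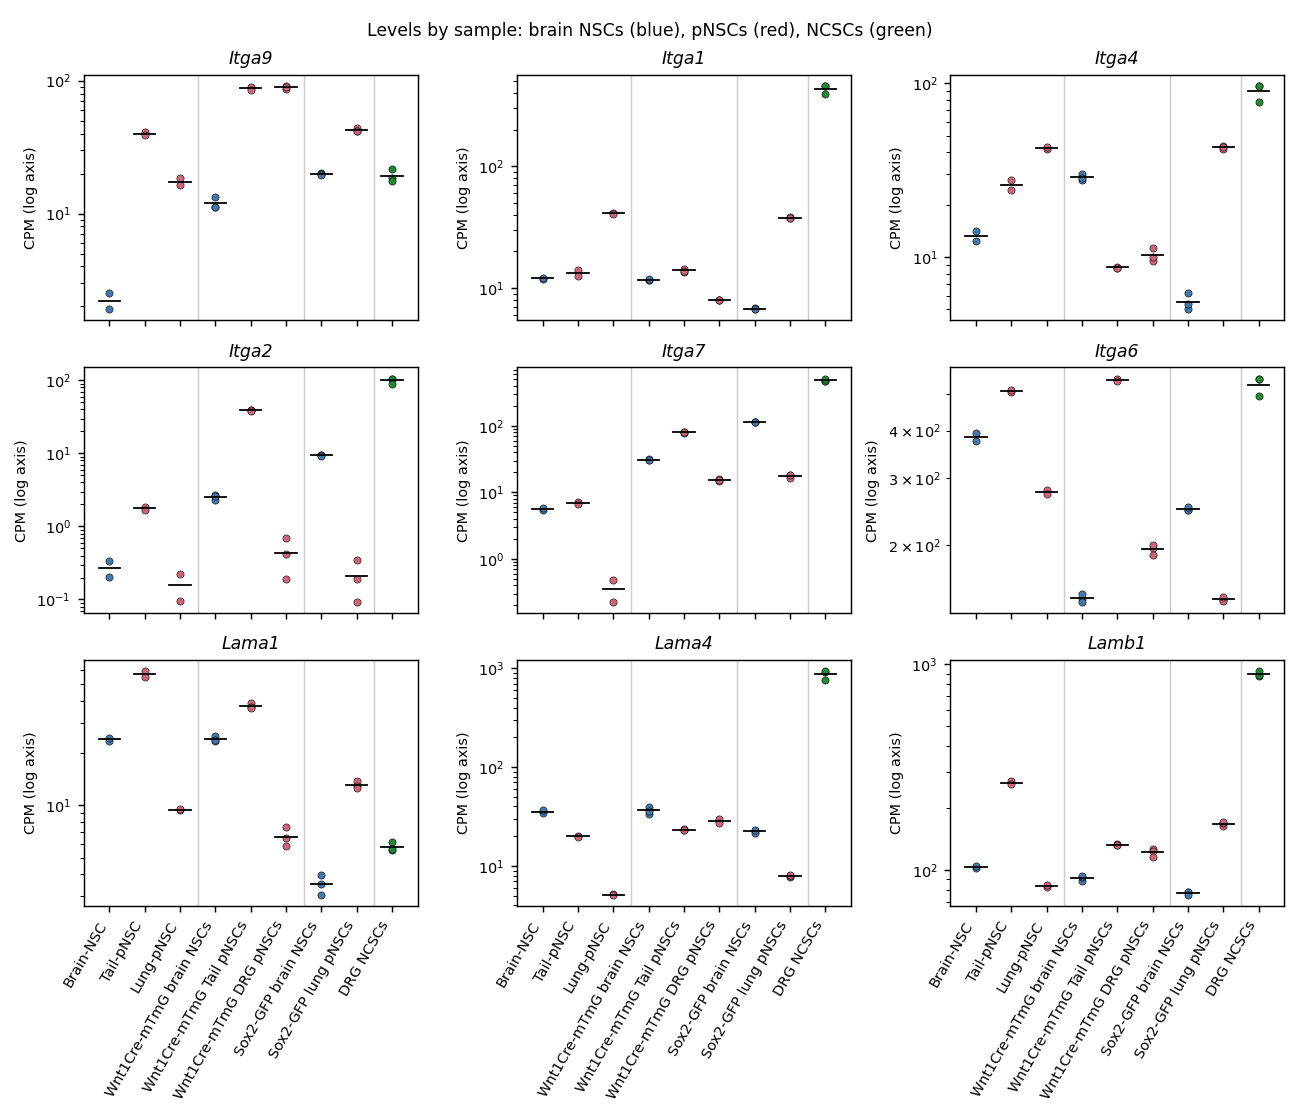
Level of selected members (CPM, log scale, points are samples and bars the mean of a group) in each NSC, pNSC and NCSC group. *Itga9* points of pNSCs lie above those of brain NSCs within each line, while *Itga4* and *Lama1* points lie above in some lines and below in others.

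*Itga4* encodes α4, which pairs with β1 or β7 and binds VCAM1 and fibronectin, and its direction depended on the line and tissue. It was at 41.8 and 43.0 CPM in Nes-GFP lung pNSCs and 27.6 and 24.3 in Nes-GFP tail pNSCs, against 14.1 and 12.3 in brain NSCs. In the Sox2-GFP line it was at 43.4, 41.7 and 43.2 in lung pNSCs against 6.18, 5.01 and 5.40. In the Wnt1Cre-mTmG line it was at 8.63, 8.80 and 8.68 in tail pNSCs and 9.47, 10.0 and 11.3 in DRG pNSCs, against 27.8, 30.1 and 28.6. No pNSC sample overlapped the brain NSC samples of its line. *Itga4* thus rose in both lung pNSC groups, 3.15-fold in Nes-GFP (log2 fold change 1.66 ± 0.08 SE, edgeR adjusted p = 4.48e-85) and 7.94-fold in Sox2-GFP (log2 fold change 2.99 ± 0.07 SE, edgeR adjusted p too small to be represented), and fell in Wnt1Cre-mTmG tail (log2 fold change -1.74 ± 0.10 SE, edgeR adjusted p = 4.91e-11) and DRG pNSCs (log2 fold change -1.49 ± 0.11 SE, edgeR adjusted p = 4.47e-09). In Nes-GFP tail pNSCs the log2 fold change was 0.94 ± 0.09 SE, just under the limit, and it reached 1.04 without Brain-NSC replicate 1 and 1.03 without Tail-pNSC replicate 2. Both lung pNSC groups stood near the same level, and the brain NSCs they were compared with did not. The opposite-strand gene *Cerkl* overlaps *Itga4*, and it is not known whether the counting used strand.

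The collagen-binding subunits *Itga1* and *Itga2* lie next to each other on chromosome 13, both on the minus strand, 21.0 kb apart with 1 annotated gene, *Gm47776*, between them. *Itga1* (chr13:114953096-115101964) overlaps *Pelo* on the same strand, and *Itga2* lies at chr13:114833081-114932100. Their promoters and that of *Itga4* are shown because *Itga1* and *Itga4* were both higher in the lung pNSCs of 2 lines, while *Itga2*, the neighbour of *Itga1*, was not. Each window holds the 250 bases before the RefSeq start on the gene's own strand (GRCm38.p6), from chr13:115101965-115102214 (minus) for *Itga1*, chr13:114932101-114932350 (minus) for *Itga2* and chr2:79255176-79255425 (plus) for *Itga4*, written 5′ to 3′ with any GC box (GGGCGG or its reverse complement CCGCCC) in capitals.
*Itga1*: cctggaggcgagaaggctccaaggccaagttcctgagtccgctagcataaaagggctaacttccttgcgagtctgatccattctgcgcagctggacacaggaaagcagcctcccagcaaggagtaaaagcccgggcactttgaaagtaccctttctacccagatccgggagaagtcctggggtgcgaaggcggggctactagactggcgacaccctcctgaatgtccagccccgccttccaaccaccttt
*Itga2*: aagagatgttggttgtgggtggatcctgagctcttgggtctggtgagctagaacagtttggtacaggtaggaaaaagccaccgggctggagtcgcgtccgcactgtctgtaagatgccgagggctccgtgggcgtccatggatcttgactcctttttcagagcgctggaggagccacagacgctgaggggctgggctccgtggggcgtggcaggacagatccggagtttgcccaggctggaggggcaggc
*Itga4*: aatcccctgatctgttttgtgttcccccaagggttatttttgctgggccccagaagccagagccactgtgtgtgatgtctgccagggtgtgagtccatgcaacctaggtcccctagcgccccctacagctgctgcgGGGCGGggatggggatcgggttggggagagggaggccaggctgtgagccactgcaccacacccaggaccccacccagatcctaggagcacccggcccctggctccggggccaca
The *Itga4* window holds 1 GC box, 114 bases before the start, and the other windows hold none. GC boxes occur in 32.7% of all 32851 RefSeq windows of this length. None of the windows holds CCAAT or TATAAA on either strand, which occur in 33.8% and 12.4% of all windows. Their GC content was 57.6%, 60.8% and 64% for *Itga1*, *Itga2* and *Itga4*, against a median of 52.4%. Such matches describe the sequence only.

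*Itga1*, a receptor for collagen IV, was at 41.6 and 40.8 CPM in Nes-GFP lung pNSCs against 11.9 and 12.1 in brain NSCs. In the Sox2-GFP line it was at 37.6, 38.5 and 37.5 against 6.83, 6.71 and 6.73. It rose 3.37-fold (log2 fold change 1.75 ± 0.07 SE, edgeR adjusted p = 2.67e-127) and 5.70-fold (log2 fold change 2.51 ± 0.07 SE, edgeR adjusted p too small to be represented), with no overlap between groups. In the other pNSC groups it stayed near its brain level: 14.2 and 12.6 CPM in Nes-GFP tail pNSCs, 14.4, 13.6 and 13.9 in Wnt1Cre-mTmG tail pNSCs and 7.95, 8.04 and 8.04 in DRG pNSCs, the last against 11.7, 11.7 and 11.8 in brain NSCs. Among NSC and pNSC samples, both lung pNSC groups held the highest *Itga1* levels.

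*Itga2*, whose product binds collagen I, moved the other way in the lung of the Sox2-GFP line. It was at 0.190, 0.0923 and 0.352 CPM (4, 2 and 8 counts) in Sox2-GFP lung pNSCs against 9.51, 9.49 and 9.17 in brain NSCs, a fall of -5.39 ± 0.21 SE on the log2 scale (edgeR adjusted p = 4.68e-137). In Nes-GFP lung pNSCs it was at 0.0947 and 0.224 (2 and 4 counts) against 0.201 and 0.339 (4 and 7 counts) in brain NSCs, and no change was called (log2 fold change -0.81 ± 0.75 SE, edgeR adjusted p = 0.436). Both lung pNSC groups therefore held *Itga2* near the smallest detectable amount. In tail pNSCs it rose: it was at 39.4, 39.8 and 38.5 in the Wnt1Cre-mTmG line against 2.67, 2.31 and 2.61 in brain NSCs (15.2-fold, log2 fold change 3.93 ± 0.12 SE, edgeR adjusted p = 1.20e-14), and at 1.85 and 1.68 in Nes-GFP, from the brain level given above (6.26-fold, log2 fold change 2.65 ± 0.42 SE, edgeR adjusted p = 1.63e-09). In DRG pNSCs it was at 0.423, 0.687 and 0.191 (5, 7 and 2 counts) and lower than in brain NSCs (log2 fold change -2.54 ± 0.33 SE, edgeR adjusted p = 7.06e-06). The brain NSC groups alone spanned 34.8-fold, and the pNSC groups 246-fold.

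The Wnt1Cre-mTmG tail pNSCs also held more RNA of a list of 8 fibroblast and mesenchymal markers, 435 to 446 CPM in sum against 47.8 to 48.5 in brain NSCs. Each of the 8 markers passed 3 counts in some sample of each group. Their part in the rise of *Itga2*, *Itga10* and *Itga11* was not tested. The list summed to 72507 to 73946 CPM in Tail cells. In Nes-GFP tail pNSCs it summed to 10.4 to 11.5 against 8.22 to 10.1 in brain NSCs, with *Pdgfrb* at 0. Of the other collagen receptors, *Itga10* was called higher in Wnt1Cre-mTmG tail (log2 fold change 1.55 ± 0.36 SE, edgeR adjusted p = 0.00119) and DRG pNSCs (log2 fold change 1.35 ± 0.42 SE, edgeR adjusted p = 0.0133), at group means of 1.43 ± 0.173 and 1.24 ± 0.121 CPM (SD, n = 3) against 0.494 ± 0.352. The DRG call was lost without brain NSC replicate 3, with a log2 fold change of 0.92. *Itga11* counts were 14, 13 and 6 in Wnt1Cre-mTmG tail pNSCs against 1, 2 and 0 in brain NSCs, which is at least 1.89-fold higher (edgeR adjusted p = 0.0129), and the call was lost without brain NSC replicate 3 (edgeR adjusted p = 0.067).

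*Itga6* and *Itga7* encode laminin receptor subunits, and *Itga7* is best known from muscle. *Itga6* was at 544, 548 and 541 CPM in Wnt1Cre-mTmG tail pNSCs against 145, 142 and 150 in brain NSCs and 197, 201 and 189 in DRG pNSCs. In Nes-GFP it was at 506 and 510 in tail pNSCs, 279 and 273 in lung pNSCs and 394 and 375 in brain NSCs, and in Sox2-GFP at 144, 143 and 146 in lung pNSCs and 248, 247 and 252 in brain NSCs. The Wnt1Cre-mTmG tail pNSCs were the only pNSC group in which *Itga6* passed both limits (3.70-fold, log2 fold change 1.89 ± 0.04 SE, edgeR adjusted p = 2.36e-16). Both tail pNSC groups held the highest levels among NSC and pNSC groups.

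*Itga7* was at 0.474 and 0.224 CPM (10 and 4 counts) in Nes-GFP lung pNSCs, against 5.36 and 5.80 in brain NSCs and 7.07 and 6.77 in tail pNSCs. In the Sox2-GFP line it was at 18.1, 16.6 and 17.98 in lung pNSCs against 113, 113 and 116 in brain NSCs. In the Wnt1Cre-mTmG line it was at 81.8, 78.4 and 81.8 in tail pNSCs and 15.9, 14.6 and 15.4 in DRG pNSCs, against 30.9, 31.3 and 30.9 in brain NSCs. It fell in both lung groups (log2 fold change -3.96 ± 0.29 SE, edgeR adjusted p = 6.47e-40 for Nes-GFP and log2 fold change -2.67 ± 0.04 SE, edgeR adjusted p too small to be represented for Sox2-GFP) and in DRG pNSCs (log2 fold change -1.02 ± 0.07 SE, edgeR adjusted p = 1.66e-09), and rose in Wnt1Cre-mTmG tail pNSCs (log2 fold change 1.36 ± 0.05 SE, edgeR adjusted p = 2.13e-13). The DRG fall was 0.99, under the limit, when DRG pNSC replicate 2 was left out. A list of 5 muscle markers (*Myh11*, *Acta2*, *Des*, *Myog* and *Ckm*) moved in the same direction as *Itga7* in both lung pNSC groups and in Wnt1Cre-mTmG tail pNSCs. It summed to 1.63 to 2.94 CPM in Nes-GFP lung pNSCs against 34.5 to 35.2 in brain NSCs, to 0.523 to 0.879 against 1.93 to 2.79 in Sox2-GFP, and to 58.0 to 59.4 in Wnt1Cre-mTmG tail and 8.34 to 8.96 in DRG pNSCs against 8.87 to 11.5 in brain NSCs. In Nes-GFP tail pNSCs the list summed to 46.3 to 49.9, above their brain NSCs, while *Itga7* was not called (log2 fold change 0.28). NCSCs held less of the list than Wnt1Cre-mTmG brain NSCs, 5.41 to 6.23 CPM, but more *Itga7*, 472, 478 and 515. Among brain NSC groups *Itga7* was highest in Sox2-GFP, where the list was lowest. In each of these groups 2 or 3 of the 5 markers were at or under 3 counts, *Myog* was at 0 in both Wnt1Cre-mTmG pNSC groups and their brain NSCs, and the part of such cells in the *Itga7* values was not tested. *Mettl7b* overlaps *Itga7* on the other strand. *Itga3*, the remaining laminin-binding α subunit, was between 0.611 and 3.97 CPM in all NSC and pNSC samples and was called in none of the 5 comparisons.

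Among the receptors of RGD ligands, *Itga5*, the α subunit of the main fibronectin receptor, was higher in both tail pNSC groups. It was at 28.5 and 27.1 CPM in Nes-GFP tail pNSCs and 14.9 and 14.4 in lung pNSCs against 10.9 and 7.11 in brain NSCs. In the Wnt1Cre-mTmG line it was at 79.9, 83.1 and 81.8 in tail and 28.2, 28.2 and 26.1 in DRG pNSCs against 35.8, 31.4 and 31.3. It rose 3.04-fold (log2 fold change 1.60 ± 0.09 SE, edgeR adjusted p = 7.18e-67) and 2.46-fold (log2 fold change 1.30 ± 0.06 SE, edgeR adjusted p = 5.93e-12) in the tail groups, and in neither did the samples overlap with brain NSCs. In Nes-GFP lung pNSCs the log2 fold change was 0.69 ± 0.10 SE, and it was 1.02 and called without Brain-NSC replicate 1. *Itgav*, the partner of several β subunits, had log2 fold changes of -0.32 ± 0.03, 0.26 ± 0.03, -0.10 ± 0.04, -0.48 ± 0.04 and 0.94 ± 0.02 SE in the order of the comparisons above, and none reached the limit. *Itga8*, a receptor for nephronectin, was at 0.947 to 8.33 CPM in NSC and pNSC samples. It was called lower in Wnt1Cre-mTmG tail pNSCs (2.04, 1.96 and 1.88 CPM against 7.93, 5.88 and 7.08, log2 fold change -1.85 ± 0.21 SE, edgeR adjusted p = 5.71e-07) and in Nes-GFP lung pNSCs (0.947 and 1.01 against 2.46 and 1.79, log2 fold change -1.14 ± 0.27 SE, edgeR adjusted p = 1.07e-04), the latter only with Brain-NSC replicate 1, since without it the value was -0.89.

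*Itgb1*, the most abundant β subunit, had log2 fold changes between -0.11 ± 0.04 and 0.36 ± 0.02 SE in the 5 comparisons. *Itgb8*, whose pair with αv activates latent TGF-β, was at 222 and 217 CPM in Nes-GFP tail pNSCs, 339 and 348 in lung pNSCs and 503 and 481 in brain NSCs. It fell in the tail pNSCs (log2 fold change -1.19 ± 0.03 SE, edgeR adjusted p = 1.26e-258). In the other lines it was at 386, 386 and 374, 345, 339 and 332 and 609, 593 and 588 in the tail pNSCs, the DRG pNSCs and the brain NSCs of Wnt1Cre-mTmG, and at 487, 489 and 491 and 705, 711 and 720 in Sox2-GFP lung pNSCs and brain NSCs. Its log2 fold change was below 0 in all 5 comparisons, but only the Nes-GFP tail value passed the limit. *Itgb5*, a partner of αv for vitronectin, was at 36.0, 38.4 and 37.0 in DRG pNSCs against 131, 132 and 129 in brain NSCs (log2 fold change -1.81 ± 0.06 SE, edgeR adjusted p = 4.90e-14). It was at 89.7 and 85.2 in Nes-GFP tail pNSCs against 175 and 172 (log2 fold change -1.02 ± 0.04 SE, edgeR adjusted p = 1.38e-140), and without Tail-pNSC replicate 2 that value was -0.99. *Itgb4*, the partner of α6 in epithelia, had 28, 22 and 19 counts in Wnt1Cre-mTmG tail pNSCs against 3, 1 and 2 in brain NSCs, which is at least 3.99-fold higher (edgeR adjusted p = 4.41e-05), at a mean of 1.08 ± 0.145 CPM (SD, n = 3). A list of 7 epithelial markers summed to 0.221 to 0.372 CPM there and 0.169 to 0.289 in brain NSCs, with *Krt5*, *Krt14* and *Krt8* at 0 in both.

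Among the laminin α chains, *Lama1*, the chain of the first embryonic laminin, was at 59.2 and 54.9 CPM in Nes-GFP tail pNSCs and 9.38 and 9.47 in lung pNSCs, against 23.5 and 24.5 in brain NSCs. In the Wnt1Cre-mTmG line it was at 39.2, 37.2 and 36.4 in tail and 7.53, 6.47 and 5.84 in DRG pNSCs, against 25.1, 23.5 and 23.8, and in Sox2-GFP at 13.7, 13.0 and 12.6 in lung pNSCs against 3.97, 3.05 and 3.54. None of these groups overlapped the brain NSCs of its line. *Lama1* rose in Nes-GFP tail (log2 fold change 1.22 ± 0.08 SE, edgeR adjusted p = 2.41e-52) and Sox2-GFP lung pNSCs (log2 fold change 1.94 ± 0.11 SE, edgeR adjusted p = 1.56e-64), and fell in Nes-GFP lung (log2 fold change -1.37 ± 0.10 SE, edgeR adjusted p = 1.38e-37) and DRG pNSCs (log2 fold change -1.86 ± 0.10 SE, edgeR adjusted p = 5.15e-11). The Wnt1Cre-mTmG tail value was 0.62 ± 0.07 SE, under the limit. The lung pNSCs of both lines thus lay between 9.38 and 13.7 CPM, while the means of the brain NSC groups spanned 6.86-fold.

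*Lama4* was lower in both lung pNSC groups. It was at 5.16 and 5.10 CPM in Nes-GFP lung pNSCs against 34.2 and 36.6 in brain NSCs (log2 fold change -2.81 ± 0.09 SE, edgeR adjusted p = 1.52e-208), and at 7.80, 7.89 and 8.18 in Sox2-GFP lung pNSCs against 22.6, 21.8 and 23.3 (log2 fold change -1.47 ± 0.07 SE, edgeR adjusted p = 8.98e-88). In the other pNSC groups it was at 19.99 and 19.8 in Nes-GFP tail, 22.9, 23.7 and 23.1 in Wnt1Cre-mTmG tail and 28.5, 29.9 and 27.1 in DRG pNSCs, both of the latter against 33.6, 39.8 and 36.3 in brain NSCs, and did not pass the limit. A list of 5 endothelial markers summed to at most 8.23 CPM in every NSC and pNSC sample. *Lama2*, the chain of muscle and peripheral nerve basement membrane, was called lower in Sox2-GFP lung pNSCs (0.238, 0.415 and 0.220 CPM against 2.33, 1.74 and 2.09, log2 fold change -2.75 ± 0.30 SE, edgeR adjusted p = 1.11e-19) and in DRG pNSCs (0.423, 0.588 and 0.191 against 7.40, 3.86 and 4.72, log2 fold change -3.71 ± 0.37 SE, edgeR adjusted p = 3.07e-07). In Nes-GFP tail pNSCs its 3 and 2 counts against 10 and 7 in brain NSCs were at least 2.57-fold lower (edgeR adjusted p = 0.0335), a call that was lost without either tail pNSC sample or without Brain-NSC replicate 1, with log2 values from -1.99 to -1.27. DESeq2 on all samples did not call this fall (DESeq2 adjusted p = 0.0584).

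Summed levels of marker lists of other cell types were lower in some of these groups too. The 6 neural crest and Schwann markers summed to 10.46 to 11.1 CPM in Sox2-GFP lung pNSCs against 69.0 to 73.4 in brain NSCs, with 1 at or under 3 counts in each group and *Foxd3* at 0 in the brain NSCs. In DRG pNSCs they summed to 6.57 to 7.53, with 2 at or under 3 counts, against 22.5 to 23.5, with 1. In Nes-GFP they summed to 3.87 to 3.88 in tail and 9.36 to 9.43 in lung pNSCs against 9.83 to 9.96. The 8 fibroblast markers summed to 23.0 to 26.3 CPM in Sox2-GFP lung pNSCs, with *Lum* at 0 and 4 at or under 3 counts, against 100 to 107 in brain NSCs, with *Col1a2* at 0 and 3 at or under 3 counts. They summed to 33.2 to 36.9 in DRG pNSCs and 7.68 to 9.76 in Nes-GFP lung pNSCs, against the brain levels given above. The part of such cells in the falls of *Lama2*, *Lama4*, *Itga2* and *Itga7* was not tested.

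*Lama5*, the chain of the most common laminins of adult basement membrane, was at 218, 228 and 217 CPM in Sox2-GFP lung pNSCs against 111, 111 and 108 in brain NSCs (log2 fold change 1.03 ± 0.03 SE, edgeR adjusted p too small to be represented), and upper-quartile scaling brought this to 0.97, under the limit. In the other lines it was at 429 and 411, 328 and 336 and 275 and 285 in Nes-GFP tail pNSCs, lung pNSCs and brain NSCs, and at 316, 315 and 315, 202, 218 and 215 and 205, 197 and 206 in Wnt1Cre-mTmG tail pNSCs, DRG pNSCs and brain NSCs. The log2 fold change of *Lama5* was above 0 in all 5 comparisons, and only the Sox2-GFP value passed the limit.

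*Lamb1*, the β chain of laminin-111 and laminin-511, was at 269 and 263 CPM in Nes-GFP tail pNSCs against 102 and 105 in brain NSCs (log2 fold change 1.34 ± 0.04 SE, edgeR adjusted p = 4.38e-266), and at 164, 169 and 170 in Sox2-GFP lung pNSCs against 77.9, 78.4 and 75.5 (log2 fold change 1.14 ± 0.03 SE, edgeR adjusted p too small to be represented). It was at 82.7 and 84.7 in Nes-GFP lung pNSCs, and at 134, 132 and 131, 126, 124 and 115 and 88.7, 91.9 and 93.5 in Wnt1Cre-mTmG tail pNSCs, DRG pNSCs and brain NSCs, none past the limit. *Lamb2* was at 59.6, 60.1 and 64.6 in DRG pNSCs and 212, 217 and 218 in tail pNSCs against 118, 121 and 128 in brain NSCs. The DRG value of -0.99 ± 0.05 SE was just short of the limit and passed it under 7 of 11 alternatives, at -1.03 to -1.005. *Lamc1*, the γ chain of these laminins, had log2 fold changes from -0.03 ± 0.03 to 0.68 ± 0.02 SE in pNSCs against brain NSCs, and none of these was called.

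The members called against brain NSCs at low counts were few. *Itgal*, the α subunit of a leukocyte integrin, had 2 and 6 counts in Nes-GFP tail and 4 and 7 in lung pNSCs against 0 and 1 in brain NSCs, hence at least 1.43-fold higher in tail and 1.97-fold in lung (edgeR adjusted p = 0.0314 and edgeR adjusted p = 0.00919). Both calls were lost without Brain-NSC replicate 1 and without replicate 2 of the pNSC group, at log2 values from 1.93 to 2.62. DESeq2 on all samples called neither (DESeq2 adjusted p = 0.0907 in tail and DESeq2 adjusted p = 0.0607 in lung). The 8 leukocyte markers summed to 3.97 to 4.06 and 2.84 to 3.48 CPM in these pNSCs and to 3.05 to 3.36 in brain NSCs, with *Tyrobp* and *Cd3e* at 0 in all 3 groups. *Lamb3* was higher in Nes-GFP tail (1.68 ± 0.0767 CPM, SD, n = 2, against 0.689 ± 0.0520; log2 fold change 1.25 ± 0.33 SE, edgeR adjusted p = 4.23e-04) and DRG pNSCs (2.51 ± 0.232 CPM, SD, n = 3, against 0.688 ± 0.256; log2 fold change 1.85 ± 0.32 SE, edgeR adjusted p = 1.41e-04). *Lamc3* had 20, 12 and 5 counts in Wnt1Cre-mTmG tail pNSCs against 1, 3 and 1 in brain NSCs, at least 2.10-fold higher (edgeR adjusted p = 0.0326), and lost its call without any of 4 of the 6 samples. *Lama3* counts were 3, 1 and 3 in DRG pNSCs against 8, 9 and 9 in brain NSCs, at least 2.80-fold lower (edgeR adjusted p = 0.00406), and *Itgae* counts 10, 23 and 16 in Sox2-GFP lung pNSCs against 4, 11 and 5 (log2 fold change 1.11 ± 0.39 SE, edgeR adjusted p = 0.00696), with values of 0.92 without brain NSC replicate 1 and 0.78 without lung pNSC replicate 2. The gene *Haspin* overlaps *Itgae* on the opposite strand, as *Hsd11b1* and *G0s2* overlap *Lamb3*, so these low counts may hold reads of the other gene. *Itgb6* and *Itgax* had no counts in any NSC or pNSC sample.

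A further question was whether pNSCs of the same tissue from different lines moved alike against their own brain NSCs. The difference between the effects was tested as an interaction in a single fit over all 28 samples. For tail pNSCs, Nes-GFP against Wnt1Cre-mTmG, 11 of 36 tested members differed, 4 higher in Nes-GFP and 7 lower, against 16% of all 17393 genes, 7.05% higher and 8.96% lower. The effect on *Itga4* was higher in Nes-GFP (difference in log2 fold change, Nes-GFP minus Wnt1Cre-mTmG, 2.69 ± 0.14 SE, edgeR adjusted p = 4.40e-19), and the effects on *Itga6* (-1.51 ± 0.05 SE, edgeR adjusted p = 1.42e-23) and *Itga7* (-1.08 ± 0.14 SE, edgeR adjusted p = 2.33e-08) were higher in Wnt1Cre-mTmG. For lung pNSCs, Nes-GFP against Sox2-GFP, 12 of 36 differed, 5 higher in Nes-GFP and 7 lower, against 14.1% of all genes, 8.24% higher and 5.89% lower. *Lama1* (-3.30 ± 0.14 SE, edgeR adjusted p = 1.79e-21) and *Itga2* (4.59 ± 0.96 SE, edgeR adjusted p = 1.25e-04) differed most among members above 5 CPM in some NSC or pNSC sample. *Itga9* differed in both (1.27 ± 0.16 SE, edgeR adjusted p = 2.21e-08 in tail and 1.81 ± 0.15 SE, edgeR adjusted p = 1.28e-12 in lung), with a rise in each line. The tail and lung tests use the same Nes-GFP brain NSC samples, so their results are not independent. These lung lines differ in donor age, sorting marker and experiment, and the tail lines in sorting and experiment, which cannot be told apart here.

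**Figure D5:**
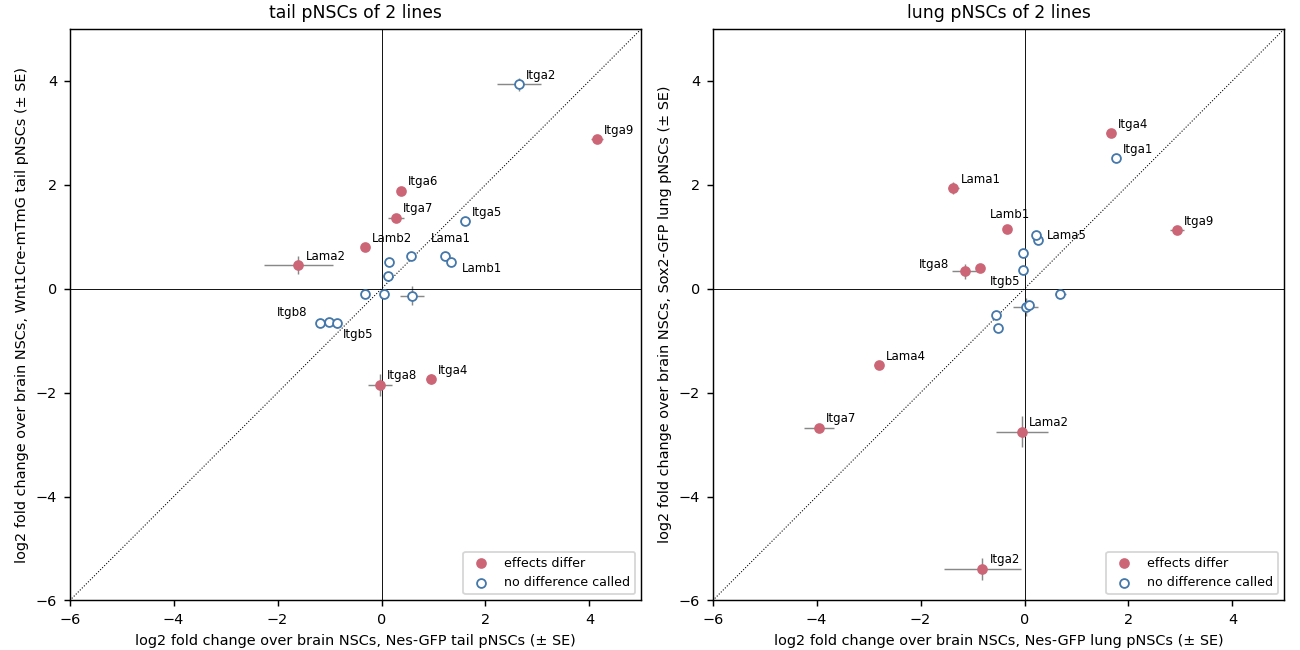
Log2 fold change over brain NSCs (± SE) of the 20 members that reached 5 CPM in some NSC or pNSC sample, in Nes-GFP pNSCs (horizontal) against pNSCs of the same tissue from the other line (vertical), for tail (left) and lung (right). Filled points are members whose effects differed between lines; *Lama1* lies below 0 for Nes-GFP lung and above 0 for Sox2-GFP lung.

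Across all lines together, no member above 5 CPM separated pNSCs from brain NSCs. For all 20 such members the range over the 13 pNSC samples overlapped the range over the 8 brain NSC samples. The brain NSC groups of the 3 lines themselves had means at least 4-fold apart for 7 members, *Itga2*, *Itga4*, *Itga5*, *Itga7*, *Itga9*, *Lama1* and *Lama2*, and for *Itga7* the spread was 20.4-fold over brain NSC groups and 231-fold over pNSC groups. No share of all genes stands beside these counts of overlap and of spread, so they do not set the members apart from other genes. Line and experiment coincide in these groups and cannot be told apart.

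NCSCs, the neural crest stem cells of the DRG, carried far more of most members than NSCs. The NCSCs came from wild-type mice, so cell type and mouse line cannot be told apart in this comparison. Against Wnt1Cre-mTmG brain NSCs 27 of 33 tested members were called, 24 higher and 3 lower (81.8%), against 36.9% of all genes, 22.1% higher and 14.8% lower, and the median log2 fold change of members was 2.16 against 0.01 for all genes. Without NCSC replicate 3, 25 of these 27 calls remained, and *Lamb2* was at 0.996, just under the limit. *Itga8* was at 647, 654 and 508 CPM in NCSCs against 7.93, 5.88 and 7.08 in brain NSCs (log2 fold change 6.43 ± 0.11 SE, edgeR adjusted p = 5.51e-19), and *Itga1* at 460, 454 and 391 against 11.7, 11.7 and 11.8 (log2 fold change 5.21 ± 0.07 SE, edgeR adjusted p = 2.07e-20). *Lama4* was at 911, 928 and 761 against 33.6, 39.8 and 36.3 (log2 fold change 4.57 ± 0.07 SE, edgeR adjusted p = 4.05e-19), and *Lama2*, a chain of Schwann cell basement membrane, at 187, 184 and 161 against 7.40, 3.86 and 4.72 (log2 fold change 5.05 ± 0.12 SE, edgeR adjusted p = 7.29e-17). In each of these pairs every NCSC sample, replicate 3 included, was far above every brain NSC sample.

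The laminin receptor subunits were higher in NCSCs as well. *Itga7* was at 472, 478 and 515 CPM (log2 fold change 3.97 ± 0.05 SE, edgeR adjusted p = 1.18e-20), *Itga3* at 57.0, 56.3 and 54.5 (log2 fold change 5.13 ± 0.11 SE, edgeR adjusted p = 3.21e-17) and *Itga6* at 546, 546 and 492 (log2 fold change 1.86 ± 0.04 SE, edgeR adjusted p = 4.16e-17). Among the β subunits, *Itgb1* was at 2774, 2770 and 2478 against 1080, 1067 and 1076 in brain NSCs (log2 fold change 1.31 ± 0.04 SE, edgeR adjusted p = 4.27e-15), *Itgb3* at 81.6, 83.5 and 82.0 against 1.43, 0.772 and 1.43 (log2 fold change 6.06 ± 0.12 SE, edgeR adjusted p = 3.66e-18) and *Itgb4* at 50.8, 51.9 and 46.2, at least 184-fold higher. Of the laminin chains, *Lamb1* was at 880, 883 and 924 (log2 fold change 3.29 ± 0.04 SE, edgeR adjusted p = 1.72e-20) and *Lamc1* at 934, 958 and 785 (log2 fold change 1.86 ± 0.06 SE, edgeR adjusted p = 2.98e-15). The 3 members called lower were *Lama1* (6.11, 5.53 and 5.64 CPM, log2 fold change -2.07 ± 0.09 SE, edgeR adjusted p = 2.51e-13), *Lama5* (66.4, 70.6 and 65.0, log2 fold change -1.59 ± 0.04 SE, edgeR adjusted p = 3.38e-16) and the platelet subunit *Itga2b* (1.31, 1.57 and 1.82, log2 fold change -1.19 ± 0.22 SE, edgeR adjusted p = 7.52e-05). *Itgav* (822, 814 and 724), *Itgb5* (212, 212 and 237) and *Itgb8* (465, 467 and 367) were not called.

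Markers of several cell types moved with these values. The 6 neural crest and Schwann markers summed to 4291 to 4395 CPM in NCSCs against 22.5 to 23.5 in brain NSCs, and the 8 fibroblast markers to 3051 to 3687 against 47.8 to 48.5. The 8 leukocyte markers summed to 618 to 648 against 2.05 to 3.18, and all but *Cd3e* passed 3 counts in some NCSC sample. The leukocyte subunits were higher with them: *Itgb2* (11.7, 10.1 and 10.1 CPM) at least 39.3-fold, *Itgam* (3.83, 3.53 and 3.64) at least 13.6-fold and *Itgal* (3.08, 3.57 and 3.17) at least 12.1-fold. These subunits passed the count filter only through the NCSCs, so they could only come out higher there. The part of such cells in these values was not tested.

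Read from the pNSC side, Wnt1Cre-mTmG tail pNSCs differed from NCSCs in 27 of 33 members, 4 higher and 23 lower (81.8%), against 37.9% of all genes, 15.3% higher and 22.6% lower. DRG pNSCs, from the same kind of ganglion, differed in 29 of 33, 3 higher and 26 lower (87.9%), against 38.3%, 15.1% higher and 23.3% lower. Without NCSC replicate 3 the counts were 26 and 28. Both comparisons share the NCSC samples. The NCSCs came from adult wild-type mice and these pNSCs from postnatal Wnt1Cre-mTmG mice, so cell type, donor age and line cannot be told apart. *Itga9* and *Lama5* were higher in both pNSC groups, *Itga9* at 2.17 ± 0.07 and 2.21 ± 0.07 SE and *Lama5* at 2.21 ± 0.04 and 1.65 ± 0.04 SE on the log2 scale, and *Itga2b*, at 3.27 ± 0.546 CPM in tail pNSCs, 4.40 ± 0.726 in DRG pNSCs and 1.57 ± 0.258 in NCSCs (SD, n = 3), was the other member higher in both (1.05 ± 0.19 and 1.505 ± 0.21 SE). The tail call of *Itga2b* was lost without NCSC replicate 1 (0.93) or tail pNSC replicate 3 (0.96). *Lama1* was higher in the tail pNSCs (log2 fold change 2.69 ± 0.08 SE, edgeR adjusted p = 1.01e-15) and was at 0.21 ± 0.11 SE in the DRG pNSCs. *Itga6* in tail pNSCs stood 0.03 ± 0.04 SE from NCSCs on the log2 scale, and was lower in DRG pNSCs (log2 fold change -1.43 ± 0.04 SE, edgeR adjusted p = 1.21e-15). *Itgav* lay at the limit in tail pNSCs (-1.001 ± 0.04 SE) and lost its call without NCSC replicate 1 (-0.97), without NCSC replicate 2 (-0.98) and without tail pNSC replicate 3 (-0.98).

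The last comparison set pNSCs beside cells of their tissue of origin. Nes-GFP tail pNSCs differed from Tail cells in 28 of 36 members, 3 higher and 25 lower (77.8%), against 46.7% of all genes, 14.1% higher and 32.6% lower. Nes-GFP lung pNSCs differed from Lung cells in 31 of 36, 3 higher and 28 lower (86.1%), against 55%, 20.2% higher and 34.9% lower. Sox2-GFP lung pNSCs differed from the same Lung cells in 30 of 36, 3 higher and 27 lower (83.3%), against 56.3%, 21.3% higher and 34.9% lower. The median log2 fold change of members was -4.09, -5.14 and -4.03, or -3.41, -4.66 and -4.03 with genes under the smallest detectable amount set at their bound, against -0.16, -0.15 and -0.12 for all genes. Members with hardly any counts in pNSCs, such as *Itgax*, *Itgb6*, *Itgam* and *Itgb2*, passed the count filter only through tissue cells. They could only come out lower in pNSCs, and they add to the counts and medians. All other genes passed the same filter.

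The members higher in pNSCs than in tissue cells were the same 3 in each comparison. *Itgb8* was at 222 and 217 CPM in Nes-GFP tail pNSCs against 45.5 and 45.8 in Tail cells (4.49-fold, log2 fold change 2.17 ± 0.04 SE, edgeR adjusted p too small to be represented). In Lung cells it was at 2.76 and 3.05, and lung pNSCs were 113-fold higher in Nes-GFP (log2 fold change 6.82 ± 0.07 SE, edgeR adjusted p too small to be represented) and 164-fold in Sox2-GFP (log2 fold change 7.36 ± 0.05 SE, edgeR adjusted p too small to be represented). *Itgav* was higher by 1.49 ± 0.04, 2.32 ± 0.04 and 2.17 ± 0.03 SE on the log2 scale, and *Lama1* by 5.37 ± 0.15, 1.37 ± 0.16 and 1.87 ± 0.13 SE. *Lama1* was at 1.39 and 1.15 CPM in Tail and 3.03 and 3.97 in Lung cells. *Itgb1*, *Itga6*, *Itgb5*, *Lama5* and *Lamc1* were called in none of the 3 comparisons, with log2 fold changes from -0.96 for *Itgb5* in tail to 0.63 for *Itga6* in tail. DESeq2 called the *Itgb5* value in tail, at -1.01.

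The members lower in pNSCs included the epithelial laminin chains. *Lama3* was at 269 and 278 CPM in Lung cells against 0.284 and 0.224 in Nes-GFP lung pNSCs, and *Lamb3* at 154 and 147 against 0.710 and 0.953. *Itgb6*, an epithelial partner of αv, was at 75.4 and 69.4 in Lung cells and at 0 in lung pNSCs, at least 467-fold lower. *Itga3*, a laminin receptor of epithelia, was at 431 and 429 CPM in Lung cells against 1.61 and 1.57 (log2 fold change -8.14 ± 0.07 SE, edgeR adjusted p too small to be represented). The 7 epithelial markers summed to 24654 to 25138 CPM in Lung cells and were all at 0 in Nes-GFP lung pNSCs.

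The leukocyte subunits fell with leukocyte markers. *Itgb2* was at 153 and 157 CPM in Lung cells and at least 999-fold lower in Nes-GFP lung pNSCs, *Itgax* at 79.9 and 84.3 and at least 529-fold lower, and *Itgam* at 11.4 and 12.9 and at least 78.3-fold lower. *Itgad*, tested in no comparison, was at 0.478 and 0.305 CPM in Lung cells and at most 0.0891 in every NSC and pNSC sample. The 8 leukocyte markers summed to 4358 to 4389 CPM in Lung cells and 2.84 to 3.48 in Nes-GFP lung pNSCs, with *Tyrobp* and *Cd3e* at 0. The part of epithelial cells and leukocytes in these values was not tested.

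Members known from mesenchyme were high in Tail cells. *Lama2* was at 185 and 195 CPM in Tail cells and at least 1165-fold lower in Nes-GFP tail pNSCs, *Itga11* at 38.3 and 40.4 and at least 241-fold lower, and *Itga10*, a collagen receptor of cartilage, at 60.8 and 61.2 against 1.56 and 1.07 (log2 fold change -5.65 ± 0.15 SE, edgeR adjusted p too small to be represented). *Lama4* was at 346 and 346 against 19.99 and 19.8 (log2 fold change -4.22 ± 0.05 SE, edgeR adjusted p too small to be represented). The 8 fibroblast markers summed to 72507 to 73946 CPM in Tail cells and 10.4 to 11.5 in tail pNSCs, where *Pdgfrb* was at 0 and 4 of the 8 were at or under 3 counts. *Itga2b* was called at the limit itself, with a log2 fold change within rounding of it, and lost its call without Tail replicate 2 (-0.96) or Tail-pNSC replicate 2 (-0.94).

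Genes that work with the integrins were read from 3 lists, and of each list the largest rises and falls among called genes are named. Of 30 integrin adaptors and focal adhesion genes, 2 rose and 4 fell in Nes-GFP tail pNSCs against brain NSCs, 1 rose and 4 fell in Nes-GFP lung, 3 and 3 of 29 in Wnt1Cre-mTmG tail, 0 and 3 of 29 in DRG, and 1 and 5 of 30 in Sox2-GFP lung pNSCs. The called shares were 20%, 16.7%, 20.7%, 10.3% and 20%, beside 10.9%, 8.71%, 18.2%, 9.53% and 15.7% of all genes. Those in both Wnt1Cre-mTmG groups and in Sox2-GFP lung pNSCs lay near the share of all genes. The median log2 fold change of the list was 0.16, -0.03, 0.17, 0.03 and -0.13 in this order, beside 0 to 0.01 for all genes. *Lims2*, a partner of integrin-linked kinase, was at least 6.65-fold lower in Nes-GFP tail pNSCs, and fell in DRG (-1.40 ± 0.39 SE on the log2 scale) and Sox2-GFP lung pNSCs (-5.63 ± 0.18 SE). *Parvb*, of the same complex, was at least 23.3-fold lower in Nes-GFP lung pNSCs and fell in Sox2-GFP lung pNSCs (-4.44 ± 0.11 SE), and *Tgfb1i1*, a paxillin relative, was at least 6.17-fold lower in Nes-GFP lung pNSCs. The kinase gene *Ptk2b* was at least 2.10-fold lower in Nes-GFP tail pNSCs, fell in Wnt1Cre-mTmG tail (-1.52 ± 0.34 SE) and DRG pNSCs (-2.15 ± 0.45 SE), and rose in Sox2-GFP lung pNSCs (1.71 ± 0.43 SE). The tetraspanin *Cd9* fell in Wnt1Cre-mTmG tail pNSCs (-1.22 ± 0.07 SE). Rises were those of the actin crosslinker *Actn1* (1.44 ± 0.07 SE) and the scaffold *Tns3* (1.01 ± 0.04 SE) in Nes-GFP tail, *Tns3* (1.08 ± 0.04 SE) in Nes-GFP lung, and *Tns1* (2.10 ± 0.07 SE) and talin 2, *Tln2* (1.64 ± 0.06 SE), in Wnt1Cre-mTmG tail pNSCs.

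Of 20 integrin ligands and basement membrane partners tested, 4 rose and 3 fell in Nes-GFP tail, 4 and 2 in Nes-GFP lung, 8 and 4 in Wnt1Cre-mTmG tail, 0 and 8 in DRG, and 4 and 7 in Sox2-GFP lung pNSCs, with medians of 0.21, 0.06, 0.79, -0.59 and -0.49, beside 0 to 0.01 for all genes. The called shares of 35%, 30%, 60%, 40% and 55% stand beside the same shares of all genes as above, by direction 4.31% higher and 6.59% lower in Nes-GFP tail, 4.56% and 4.15% in Nes-GFP lung, 9.16% and 9.05% in Wnt1Cre-mTmG tail, 3.12% and 6.41% in DRG, and 5.76% and 9.99% in Sox2-GFP lung pNSCs. In Nes-GFP tail pNSCs the matricellular gene *Ccn2* was at least 17.3-fold higher and osteopontin, *Spp1*, a ligand of α9 and α4 integrins, rose by 2.03 ± 0.23 SE, while the laminin-binding linker *Nid1* (-2.47 ± 0.38 SE) and tenascin-R, *Tnr* (-1.98 ± 0.09 SE), fell. In Nes-GFP lung pNSCs the α8 ligand *Npnt* rose (1.987 ± 0.05 SE), and *Thbs1* (-3.15 ± 0.16 SE) and *Ccn1* (-1.50 ± 0.11 SE) fell. In Wnt1Cre-mTmG tail pNSCs *Thbs1* rose (3.24 ± 0.11 SE) and vitronectin, *Vtn*, was at least 2.74-fold higher, while *Spp1* fell (-2.43 ± 0.07 SE) and *Icam1*, a ligand of leukocyte integrins, was at least 2.58-fold lower. *Spp1* thus moved in opposite directions in the tail pNSCs of the 2 lines, and this difference was not tested. In DRG pNSCs the falls were led by *Col4a1* (-3.11 ± 0.07 SE), a basement membrane collagen, and *Thbs2* (-2.74 ± 0.34 SE). In Sox2-GFP lung pNSCs *Spp1* rose (2.76 ± 0.27 SE), and *Vtn* was at least 8.45-fold and E-cadherin, *Cdh1*, at least 1.76-fold lower. *Icam1* was called higher in both lung pNSC groups at levels near the smallest detectable amount, so no fold is given.

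The third list holds other laminin receptors, with dystroglycan and its partners. Of 20 tested, 0 rose and 2 fell in Nes-GFP tail, 1 and 0 in Nes-GFP lung, 0 and 3 in Wnt1Cre-mTmG tail, 0 and 1 in DRG, and 1 and 0 in Sox2-GFP lung pNSCs, with medians of -0.18, -0.07, -0.16, -0.10 and 0.09, beside 0 to 0.01 for all genes. These shares of 10%, 5%, 15%, 5% and 5% lay under the 10.9%, 8.71%, 18.2%, 9.53% and 15.7% of all genes. The hyaluronan receptor *Cd44* fell in both tail groups (-1.31 ± 0.06 SE in Nes-GFP and -1.48 ± 0.06 SE in Wnt1Cre-mTmG), with *Pomk* (-1.31 ± 0.09 SE), a kinase that modifies dystroglycan, in the former and the syndecan *Sdc1* (-1.14 ± 0.06 SE) in the latter. *Bcam*, a receptor for laminin α5, rose in Nes-GFP lung pNSCs (1.18 ± 0.08 SE), *Sdc1* rose in Sox2-GFP lung pNSCs (1.83 ± 0.05 SE), and *Sgcd* was at least 1.79-fold lower in DRG pNSCs. In NCSCs against brain NSCs, 20 of 29 adaptors, 15 of 20 ligands and 7 of 20 of these receptors rose, and 1 of each list fell, beside 22.1% of all genes higher and 14.8% lower. The medians were 1.52, 3.39 and 0.61, beside 0.01 for all genes. Among the rises were those of *Lims2* (4.10 ± 0.17 SE) and *Parvg*, at least 5.05-fold, among adaptors, *Thbs2* (9.39 ± 0.09 SE) and *Spp1* (7.22 ± 0.05 SE) among ligands, and *Sgcd* (3.51 ± 0.27 SE) and *Cd44* (3.16 ± 0.05 SE) among receptors. The falls were those of *Fyn* (-1.82 ± 0.04 SE), *Tnr* (-3.96 ± 0.09 SE) and *Sdc3* (-1.86 ± 0.04 SE).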

How the data were processed

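The deposited table holds read counts per gene for 28 samples, to which the authors applied no normalization. Per the study's methods and the submitters' processing notes, single-end reads of polyA RNA were aligned to GRCm38 with HISAT2, annotated with Cufflinks and counted with htseq-count. The strand setting, counting mode and annotation release are not given in the sources used here. Genes that overlap others can share or lose reads by this setting.

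Genes were filtered with edgeR's filterByExpr (minimum count 10, minimum total 15), scaled by TMM and tested with the two-sided quasi-likelihood test (edgeR 4.0.16, R 4.3.3) in 1 fit per experiment over all its groups, and in 1 fit over all 28 samples for differences between lines. P-values were adjusted by Benjamini-Hochberg over all genes tested within each comparison. SE is the log2 fold change over the square root of F. Where all samples of a group held at most 3 counts, the fold change is a lower bound against 3 counts per library. An adjusted p of 0 is given as too small to be represented. CPM per kilobase used merged exons of GENCODE M21, and promoter windows came from RefSeq, which held 23 of the 37 members. Sample values are given for members called against brain NSCs or NCSCs with at least 10 CPM in some NSC, pNSC or NCSC group. For several of these members, such as *Itga5* and *Itgb5*, some groups are left out. Other members are given mostly by group, range or counts. The fits were tested on simulated data in which only genes with ample counts were changed, and by folds well past the limit. That test does not cover calls at low counts or near the limit. Alternatives were DESeq2 1.42.0, upper-quartile scaling, no filter, only the groups compared, a replicate block and leaving out each sample. The values of 1 member, which stays in the counts, are not reported here. The members were set by symbol and the lists were not picked by how their genes move here. Earlier results of these data were known when both were set, so the choice was not blind. Figures were drawn with Python 3.11.15 and matplotlib 3.10.9.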

Additional observations from a re-analysis of the deposited data

Results flagged for a closer look

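The effect of the tissue of origin, pNSCs against brain NSCs, was measured for tail and for lung in 2 mouse lines each, and the difference between lines was tested in a single edgeR fit over all 28 samples. The values below are differences in log2 fold change, Nes-GFP minus the other line, with their SE, for the 23 results that passed both limits (adjusted p under 0.05, at least 1 on the log2 scale). The tail and lung differences share the Nes-GFP brain NSC samples and are not independent.

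For tail pNSCs the other line was Wnt1Cre-mTmG. The effect was higher in Nes-GFP for *Itga4* (2.69 ± 0.14), *Itga8* (1.82 ± 0.38), *Itga9* (1.27 ± 0.16) and *Lamb3* (1.40 ± 0.46). It was lower for the laminin receptor subunits *Itga6* (-1.51 ± 0.05) and *Itga7* (-1.08 ± 0.14), for the laminin chains *Lamb2* (-1.13 ± 0.06) and *Lama2* (-2.05 ± 0.80), and for *Itga10* (-1.52 ± 0.49), *Itga11* (-4.62 ± 1.41) and *Itgb4* (-2.42 ± 0.93). *Itga4* and *Itga8* fell in Wnt1Cre-mTmG tail pNSCs, where the Nes-GFP values did not pass the limits. *Itga11* rests on 0 and 1 counts in Nes-GFP tail pNSCs and 2 and 4 in brain NSCs, *Itgb4* on 2 and 5 and 5 and 2, and *Lama2* on 3 and 2 and 10 and 7. The calls of *Itga10*, *Itga11*, *Itgb4*, *Lama2* and *Lamb3* were each lost when 1 of some libraries was left out: *Itga10* without Brain-NSC replicate 1, Tail-pNSC replicate 2 or Wnt1Cre-mTmG brain NSC replicate 3 (-1.33 to -1.08), *Itga11* without Brain-NSC replicate 2 (-4.09), *Itgb4* without Brain-NSC replicate 1, Tail-pNSC replicate 1 or Wnt1Cre-mTmG brain NSC replicate 2 (-2.15 to -1.62), *Lama2* without Brain-NSC replicate 1 or either Tail-pNSC sample (-2.42 to -1.70), and *Lamb3* without replicate 1 of the Wnt1Cre-mTmG tail pNSCs or of their brain NSCs (1.06 to 1.16).

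For lung pNSCs the other line was Sox2-GFP. The effect was higher in Nes-GFP for *Itga2* (4.59 ± 0.96), *Itga9* (1.81 ± 0.15), *Itgal* (3.48 ± 1.16), *Itgb3* (1.38 ± 0.37) and *Lama2* (2.71 ± 0.74). It was lower for *Itga4* (-1.32 ± 0.14), *Itga7* (-1.27 ± 0.31), *Itga8* (-1.46 ± 0.42) and *Itgb5* (-1.23 ± 0.06), and for the laminin chains *Lama1* (-3.30 ± 0.14), *Lama4* (-1.33 ± 0.16) and *Lamb1* (-1.46 ± 0.05). *Lama1* fell in Nes-GFP and rose in Sox2-GFP lung pNSCs. The fall of *Itga2* in Sox2-GFP started from a brain NSC level of 9.17 to 9.51 CPM, while the Nes-GFP brain NSCs held 0.201 to 0.339 CPM. *Itgal* rests on 4 and 7 counts in Nes-GFP lung pNSCs and 0 and 1 in brain NSCs. The calls of *Itga7* (-0.88), *Itgal* (2.93) and *Lama2* (1.62) were lost without Lung-pNSC replicate 2, and those of *Itga8* (-1.19) and *Itgal* (2.70) without Brain-NSC replicate 1.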

How the results depend on the processing

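The number of members called in each comparison stayed within 1.5 times the reported one under DESeq2, upper-quartile scaling, no filter on low counts, a fit of only the groups compared, the replicate block and the omission of each sample. Leaving out 1 sample gave 8 to 11 calls in Nes-GFP tail pNSCs against brain NSCs, 8 to 10 in Nes-GFP lung, 9 to 11 in Wnt1Cre-mTmG tail, 9 to 11 in DRG and 10 to 12 in Sox2-GFP lung pNSCs, 25 to 28 in NCSCs against brain NSCs, 24 to 27 and 27 to 31 in tail and DRG pNSCs against NCSCs, 27 to 28, 31 and 30 against tissue cells, and 8 to 11 and 9 to 12 for the differences between lines in tail and lung. Of 2579 values of called members recomputed under an alternative, 2513 stayed past the limits, 66 kept their direction but not the call, and 0 turned; 50 of the 66 came from leaving out a sample, and 19 more could not be tested there. Among the calls lost were those of members with few counts, *Itgal*, *Itga11*, *Itgb4*, *Lama2* and *Lamc3*, and of *Itgav*, *Lamb2* and *Itga2b*, whose values lie close to a log2 fold change of 1. Samples of different groups with the same replicate number correlated at -0.015 to 0.055 in their deviations, too low to take the numbers as pairs, although 20 of 36 samples correlated best with their own number, above an even share over 3 numbers, and 5 of 6 did in Wnt1Cre-mTmG tail pNSCs against NCSCs and in Sox2-GFP. With replicate number as a block the counts of calls were the same except 26 in place of 27 for Wnt1Cre-mTmG tail pNSCs against NCSCs, where *Itgav* fell just short of the limit (-0.9998).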
